A study of Mus musculus with 12 samples.

Results

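The transcripts described here are those of the mouse mitochondrial genome, taken as every row of the deposited expression table whose gene name starts with mt-. The rule found 37 of the 55471 rows: 13 protein-coding genes, 2 ribosomal RNA genes and 22 transfer RNA genes, all on chromosome M of GRCm38. They were followed in left kidneys of C57/BL6 mice 8 to 12 weeks old after unilateral ureteral obstruction (UUO), in which a microvascular clamp on the left ureter stops the outflow of urine from that kidney. The 4 groups were Sprr2f knockout (KO) kidneys at day 5 of obstruction (3 libraries), KO kidneys at day 0 (4 libraries), wild type (WT) kidneys at day 5 (3 libraries) and WT kidneys at day 0 (2 libraries). Sprr2f encodes a small proline-rich protein of epithelia; the sources used here give neither the deleted part of the gene nor whether day 0 kidneys had surgery, and the treatment text names KO mice alone. Libraries were made from total RNA with a PrepX mRNA kit and sequenced with 50-base reads on an Illumina HiSeq.

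The mitochondrial genome is a small circle inside the organelle that is transcribed from both strands into long precursors, and the transfer RNAs lying between the other genes are cut out to release them. Its 13 proteins are core subunits of respiratory complexes I, III and IV and of ATP synthase, and they are assembled with subunits that are encoded in the nucleus, made in the cytosol and imported. The tubules of the kidney cortex, above all the proximal tubule, are rich in mitochondria and depend on oxidative phosphorylation (OXPHOS) for solute transport.

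Libraries held 16567256 to 19398882 reads counted to genes, so 1 read was worth 0.0515 to 0.0604 CPM (the reads of a gene scaled to the same total in every library). Sprr2f had 0, 39 and 76 reads in KO kidneys at day 5 against 482, 447 and 1138 in WT kidneys at day 5, and 0 to 5 reads in every library at day 0, where the gene cannot tell the genotypes apart. The title of the study names female mice, yet 7 libraries carried Y-linked transcripts and 5 carried Xist: all 4 KO day 0 libraries, KO day 5 replicate 2, WT day 5 replicate 3 and WT day 0 replicate 1 were Y-linked. Fits with this pattern as a covariate are therefore given where they change a call. The summed level of 12 proximal tubule markers at day 0 was 43784 to 53202 CPM in KO and 24332 to 41864 CPM in WT, so the markers of the labelled tissue were present in every group at day 0. Since nothing in the labels ties a replicate to its own animal, the p-values below speak only of the scatter among these 12 libraries.

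Reads were found for 16 of the 37 rows, namely all 13 protein-coding genes, both ribosomal RNAs and 1 transfer RNA. The other 21 transfer RNA rows held 0 reads in all 12 libraries, which allows up to 0.155 to 0.181 CPM per library (3 reads, counting error only). The exception was mt-Tp, the transfer RNA for proline, which is encoded on the light strand at the end of the gene array. It lies beside mt-Tt, the transfer RNA for threonine on the opposite strand, which had none. The sequences of both are shown with that of mt-Te, the uncounted light-strand transfer RNA for glutamate next to mt-Nd6. The 3 are of nearly the same length, so that length does not separate the counted row from the uncounted ones. They are written from the 5′ end of each gene, from the GENCODE M21 transcripts of GRCm38, without capitals.
mt-Tp (chrM:15356-15422, minus strand): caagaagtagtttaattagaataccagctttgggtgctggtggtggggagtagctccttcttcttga
mt-Tt (chrM:15289-15355, plus strand): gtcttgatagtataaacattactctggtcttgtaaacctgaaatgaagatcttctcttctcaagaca
mt-Te (chrM:14071-14139, minus strand): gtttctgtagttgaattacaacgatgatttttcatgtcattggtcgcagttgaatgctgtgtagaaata
Whether the authors' counting used the strand is not given in the sources used here. Reads of mt-Tp, and of mt-Nd6 on the same strand, can therefore not be told apart from RNA of the opposite strand.

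Sequence shared with the nucleus bears on the values below. The nuclear genome carries old insertions of mitochondrial DNA, and the annotation lists pseudogenes in them as genes of their own. Of the stretches of 50 bases in each mitochondrial gene, the length of a read, mt-Co2 shared 100% with annotated nuclear transcripts, mt-Co3 99.9%, mt-Atp6 99.5%, mt-Nd4l 98.8% and mt-Nd3 98%. The share was 62.2% in mt-Nd4, 51.1% in mt-Co1, 8.19% in mt-Nd2, 7.61% in mt-Nd5 and 1.04% in mt-Rnr2, and 0% in mt-Nd1, mt-Nd6, mt-Cytb, mt-Atp8, mt-Rnr1 and all 22 transfer RNAs. Most of this came from 7 pseudogenes in a row on chromosome 1 (chr1:24611535-24616197), which cover mt-Co1 to mt-Nd4 in part, and 3 on chromosome 2 (chr2:22587291-22590533). Nuclear sequence outside annotated transcripts was not searched.

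The chromosome 1 copies are near perfect. Gm28661 matched 681 bases of mt-Co2 with 0 mismatches, Gm10925 678 bases of mt-Atp6 with 0, Gm28437 783 bases of mt-Co3 with 0, Gm10222 294 bases of mt-Nd4l with 0 and Gm28439 876 bases of mt-Nd4 with 0. Gm28438 differed from mt-Nd3 at 1 of 345 bases (T3C, counted from the first base of the mitochondrial gene). The chromosome 2 copy of mt-Co2, Gm13341, differed at 16 of 672 aligned bases. The first 80 bases of mt-Co2 and of both copies show that a read can match 1 or several places, and capitals mark the positions at which Gm13341 differs (C25T and G57A).
mt-Co2 (chrM:7013-7092, plus strand): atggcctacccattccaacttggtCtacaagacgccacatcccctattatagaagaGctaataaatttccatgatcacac
Gm28661 (chr1:24615486-24615565, minus strand): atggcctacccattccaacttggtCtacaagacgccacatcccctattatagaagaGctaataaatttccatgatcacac
Gm13341 (chr2:22587883-22587962, minus strand): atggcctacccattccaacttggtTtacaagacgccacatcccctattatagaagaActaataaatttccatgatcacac
The start of mt-Nd3 and of its chromosome 1 copy, with the differing base in capitals, shows the 1 mismatch between them; apart from it, only the last bases of mt-Nd3, beyond base 345 where the copy ends, set the rows apart, and 6 of the 299 stretches of 50 bases in mt-Nd3 were unshared.
mt-Nd3 (chrM:9459-9508, plus strand): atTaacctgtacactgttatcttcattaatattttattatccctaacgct
Gm28438 (chr1:24613070-24613119, minus strand): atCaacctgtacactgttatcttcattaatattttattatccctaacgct

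The rows with nearly complete copies were low, but identity did not order the other rows. Per 1000 bases of gene, the 5 rows sharing over 90% averaged 7.68 (mt-Nd4l) to 50.6 (mt-Co2) CPM over the 12 libraries. The 9 rows with over 400 unshared positions averaged 409.5 (mt-Rnr2) to 13239 (mt-Co1) CPM per 1000 bases. What the authors' counting did with reads that match several places is not given in the sources used here, and its part in these levels was not tested. mt-Atp8 stood lowest, at 5.58 CPM per 1000 bases, although it shared 0% with annotated nuclear transcripts; it overlaps mt-Atp6 by 43 bases, and its position falls between Gm10925 and Gm28661 on chromosome 1, in sequence that was not searched. The values of the 5 shared rows and of mt-Atp8 are for these reasons uncertain as levels.

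**Figure D1:**
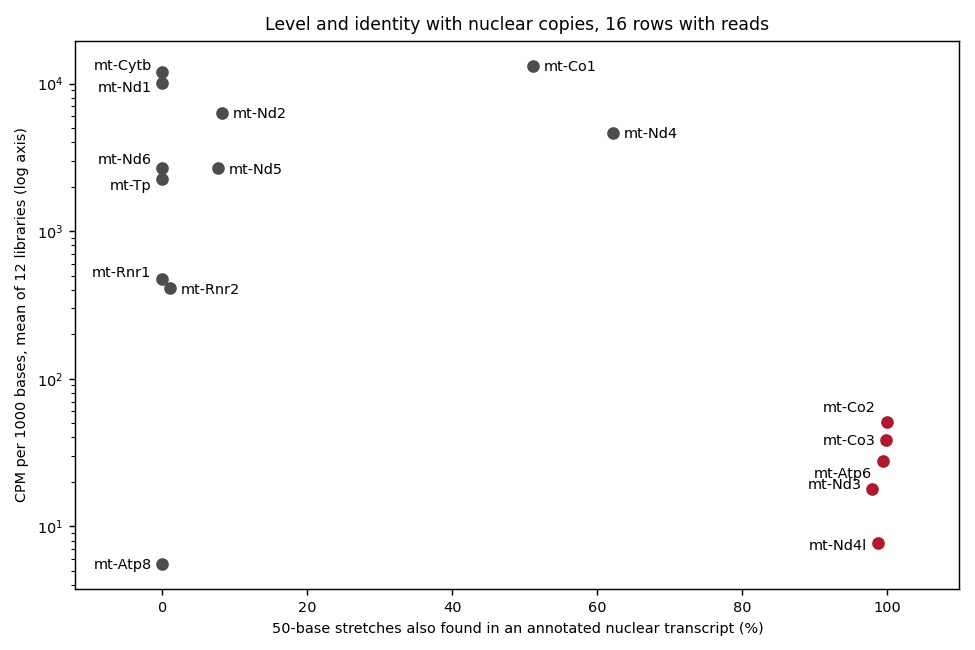
Mean deposited CPM per 1000 bases over 12 libraries (log axis) against the percentage of 50-base stretches also found in an annotated nuclear transcript, 1 point for each of the 16 rows with reads. The 5 rows over 90% (red) lie at 50.6 CPM per 1000 bases or below, while mt-Co1 at 51.1% and mt-Nd4 at 62.2% lie among the highest.

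Per 1000 bases of gene, mt-Co1 was above mt-Cytb in 10 of 12 libraries and below it in KO day 0 replicates 2 and 3. mt-Co1 stood at 9185 ± 588 CPM per 1000 bases in KO kidneys at day 5 against 16774 ± 952 in KO kidneys at day 0, and mt-Cytb at 7729 ± 186 against 16844 ± 743 (SD, n = 3 and 4). mt-Nd1, mt-Nd2 and mt-Nd4 followed in this order in all 12 libraries, at 6612 ± 336, 3798 ± 168 and 2952 ± 53.8 CPM per 1000 bases in KO kidneys at day 5 (SD, n = 3 each). mt-Nd5 and mt-Nd6, which are encoded on opposite strands, came next and were each the higher in 6 of 12 libraries. The ribosomal RNAs mt-Rnr1 and mt-Rnr2 were the lowest of these 9 rows in every library. The place of mt-Nd4 depends on what was counted: if reads from shared stretches were left out and only unshared positions count as length, it stood at 8104 ± 148 CPM per 1000 positions in KO kidneys at day 5, beside 8075 ± 195 for mt-Cytb and 19413 ± 1244 for mt-Co1 (SD, n = 3 each). Ribosomal RNA makes up most of the RNA inside mitochondria but carries short tails, and the libraries were made with an mRNA kit; the part of the kit in this order was not tested.

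Every mitochondrial transcript with reads was lower after 5 days of obstruction. The 37 rows took 4.34%, 4.07% and 4.21% of reads in KO kidneys at day 5 against 8.83%, 9.26%, 8.31% and 8.43% in KO kidneys at day 0, and 3.90%, 4.02% and 3.89% in WT kidneys at day 5 against 8.95% and 9.09% in WT kidneys at day 0. The groups did not overlap in either genotype. The mean difference within genotypes, day 5 minus day 0, was -4.79 percentage points (exact permutation test stratified by genotype, two-sided p = 0.00571, the smallest that 350 arrangements can give). It was -4.50 points in KO (exact p = 0.0571) and -5.09 points in WT (exact p = 0.2), each the smallest p its group sizes allow. No term for the sex-chromosome pattern enters these tests. In KO every day 0 library was Y-linked, but at day 5 only replicate 2 was, so day and pattern are partly confounded. In bulk tissue, fewer cells of a mitochondria-rich type and less RNA per cell cannot be told apart.

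Gene by gene, with log2(CPM + 0.5) scaled by trimmed mean of M-values (TMM) factors and tested with limma over 18093 genes, all 16 rows with reads passed the filter on low values. All 16 were lower at day 5 in KO kidneys and all 16 in WT kidneys at an adjusted p under 0.05. Among all genes tested, 54.8% were called in KO (25.4% lower and 29.4% higher) and 47.1% in WT (22.6% lower and 24.5% higher). The median log2 fold change of the 16 rows was -1.48 in KO and -1.55 in WT, beside 0.07 and 0.04 over all genes tested. The libraries of the 2 days did not overlap in deposited CPM for any of the 16 rows in either genotype, a pattern shown in this direction by 12.1% of genes in KO and 14.5% in WT. With library size as the only scaling, the median of all genes moved to 0.45 in KO and 0.40 in WT and that of the 16 rows to -1.04 and -1.18, and all 16 stayed lower. Lower genes then made up 17.7% of the calls in KO and 18.9% in WT, in place of 46.3% and 47.9%.

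**Figure D2:**
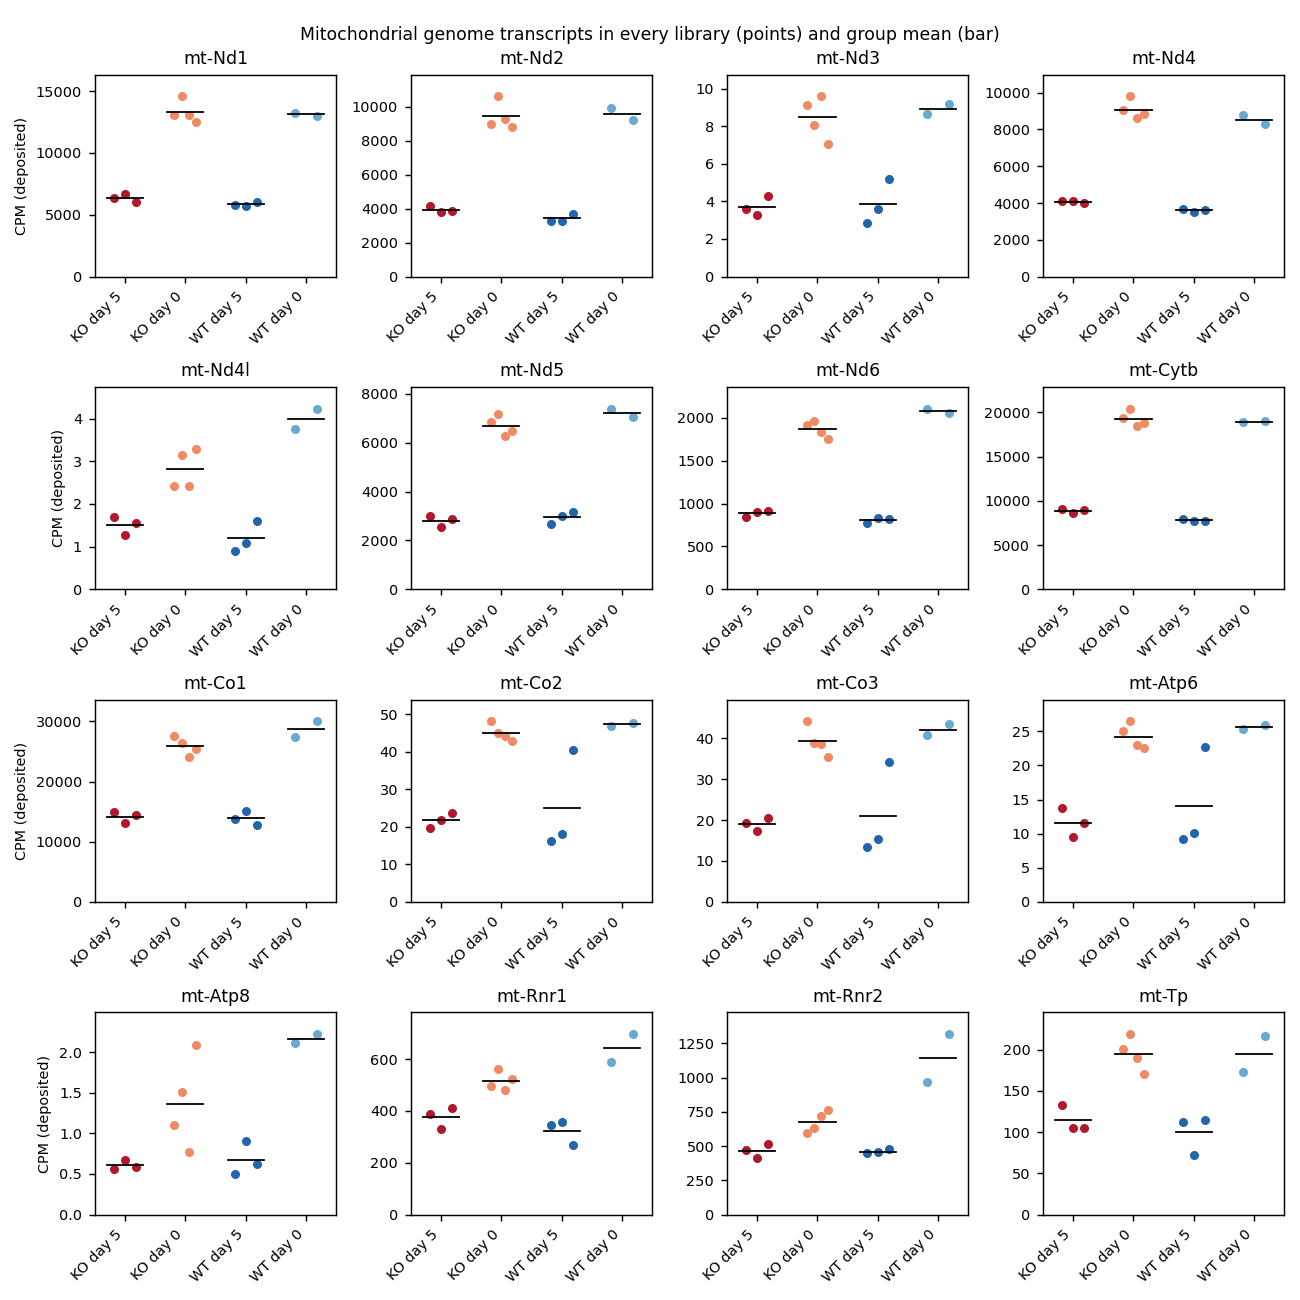
Deposited CPM (linear axes from 0) of each of the 16 mitochondrial rows with reads in every library, by group; bars are group means. Day 5 lies below day 0 in every panel for both genotypes, and WT day 5 replicate 3 lies apart from its mates in mt-Co2 (40.6 CPM), mt-Co3 (34.1 CPM) and mt-Atp6 (22.7 CPM).

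Complex I, the NADH dehydrogenase that admits electrons to the chain, takes 7 of its subunits from this genome. mt-Nd1, part of the membrane arm next to the quinone site, had 6328, 6649 and 6006 CPM in KO kidneys at day 5 against 13080.4, 14584, 13066 and 12501 CPM in KO kidneys at day 0, and 5823, 5737 and 6064 CPM in WT kidneys at day 5 against 13246 and 12964 CPM in WT kidneys at day 0. Its log2 fold change was -1.52 ± 0.20 in KO (SE, limma adjusted p = 3.02e-05) and -1.58 ± 0.23 in WT (adjusted p = 0.000124). The replicates of a group lay close together and the days stood far apart.

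mt-Nd2, a proton-pumping subunit of the same arm, had 4142, 3817 and 3868 CPM in KO kidneys at day 5 against 9004, 10614, 9258 and 8807 CPM in KO kidneys at day 0, and 3278, 3298 and 3691 CPM in WT kidneys at day 5 against 9937 and 9208 CPM in WT kidneys at day 0. It had the most negative fold change of the 16 rows in WT, -1.91 ± 0.20 (limma adjusted p = 8.92e-06), and -1.71 ± 0.17 in KO (adjusted p = 3.60e-06). mt-Nd4, another pumping subunit, had 4120.1, 4101 and 3983 CPM in KO kidneys at day 5 against 9080.5, 9812, 8615 and 8843 CPM in KO kidneys at day 0. In WT kidneys it had 3672, 3539.6 and 3595 CPM at day 5 against 8784 and 8299 CPM at day 0. The log2 difference of mt-Nd4 at day 5, KO minus WT, was 0.22 ± 0.17 (SE, limma adjusted p = 0.999) and was not called.

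mt-Nd5, the largest subunit encoded here, had 2997, 2534 and 2871 CPM in KO kidneys at day 5 against 6840.2, 7174, 6287 and 6494 CPM in KO kidneys at day 0. WT kidneys had 2656, 3016 and 3168 CPM at day 5 against 7387 and 7061 CPM at day 0. mt-Nd6, the only protein-coding gene on the light strand, had 841, 897 and 918 CPM in KO kidneys at day 5 against 1914, 1964, 1831 and 1758 CPM in KO kidneys at day 0, and 769, 828 and 822 CPM in WT kidneys at day 5 against 2106 and 2059.6 CPM in WT kidneys at day 0. Its fold change had the smallest SE of the 16, at -1.53 ± 0.10 in KO (limma adjusted p = 1.28e-07) and -1.79 ± 0.12 in WT (adjusted p = 2.95e-07). The SE draws on a trend of variance with level over all genes, so it does not rank the rows by scatter among replicates. These fold changes lay within the range of those of the rows on the heavy strand. Because the strand setting is not given, the mt-Nd6 row may hold RNA of the opposite strand, and the strands cannot be compared.

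The remaining complex I subunits were the weakly counted mt-Nd3 and mt-Nd4l. mt-Nd3 had 3.61, 3.28 and 4.29 CPM in KO kidneys at day 5 against 9.11, 8.09, 9.60 and 7.07 CPM in KO kidneys at day 0, and 2.86, 3.61 and 5.17 CPM in WT kidneys at day 5 against 8.67 and 9.16 CPM in WT kidneys at day 0. mt-Nd4l had 1.70, 1.28 and 1.55 CPM in KO kidneys at day 5 against 2.41, 3.14, 2.41 and 3.30 CPM in KO kidneys at day 0, and 0.899, 1.08 and 1.60 CPM in WT kidneys at day 5 against 3.75 and 4.23 CPM in WT kidneys at day 0. Both were lower at day 5 in each genotype, but they rest on few reads and on sequence shared with chromosome 1. Fold changes of such low rows are understated by the added 0.5 CPM.

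Complex III passes electrons to cytochrome c, and its only subunit from this genome is the cytochrome b encoded by mt-Cytb. It had 9019, 8606 and 8902 CPM in KO kidneys at day 5 against 19408, 20396, 18441 and 18833 CPM in KO kidneys at day 0, and 7972, 7749 and 7767 CPM in WT kidneys at day 5 against 18852 and 18971 CPM in WT kidneys at day 0. The log2 fold change was -1.57 ± 0.22 in KO (limma adjusted p = 6.13e-05) and -1.70 ± 0.26 in WT (adjusted p = 0.000182). The spread within each group was a small part of the difference between days.

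Complex IV, cytochrome c oxidase, reduces oxygen and has a catalytic core of 3 mitochondrial subunits. mt-Co1, which holds the oxygen-binding site, had 14919.8, 13172 and 14481 CPM in KO kidneys at day 5 against 27574, 26484, 24117 and 25488 CPM in KO kidneys at day 0, and 13839, 15140.0 and 12860.1 CPM in WT kidneys at day 5 against 27379.6 and 29988 CPM in WT kidneys at day 0. Its fold change was less negative than those of mt-Nd1, mt-Nd2, mt-Nd4, mt-Nd5 and mt-Cytb, at -1.32 ± 0.27 in KO (limma adjusted p = 0.00118) and -1.46 ± 0.32 in WT (adjusted p = 0.0024). mt-Co1 made up 33.7% ± 1.15 of mitochondrial reads in KO kidneys at day 5 against 29.8% ± 1.19 in KO kidneys at day 0 (SD, n = 3 and 4), and 35.4% ± 2.30 in WT kidneys at day 5 against 31.8% ± 1.70 in WT kidneys at day 0 (SD, n = 3 and 2).

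mt-Co2, which receives electrons from cytochrome c, had 19.7, 21.9 and 23.8 CPM in KO kidneys at day 5 against 48.1, 45.1, 44.2 and 43.0 CPM in KO kidneys at day 0. In WT kidneys it had 16.3, 18.03 and 40.6 CPM at day 5 against 46.9 and 47.7 CPM at day 0. mt-Co3, the third core subunit, had 19.2, 17.3 and 20.5 CPM in KO kidneys at day 5 against 44.1, 38.9, 38.7 and 35.5 CPM in KO kidneys at day 0, and 13.5, 15.3 and 34.1 CPM in WT kidneys at day 5 against 40.7 and 43.5 CPM in WT kidneys at day 0. In both rows 1 WT library at day 5, replicate 3, stood near the day 0 values while the other 2 did not.

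ATP synthase uses the proton gradient, and its mitochondrial subunits are encoded by mt-Atp6, part of the proton channel, and mt-Atp8. mt-Atp6 had 13.8, 9.46 and 11.5 CPM in KO kidneys at day 5 against 25.0, 26.4, 23.0 and 22.5 CPM in KO kidneys at day 0, and 9.16, 10.2 and 22.7 CPM in WT kidneys at day 5 against 25.4 and 25.9 CPM in WT kidneys at day 0. mt-Atp8 had 0.567, 0.668 and 0.590 CPM in KO kidneys at day 5 against 1.10, 1.51, 0.768 and 2.09 CPM in KO kidneys at day 0, and 0.506, 0.901 and 0.620 CPM in WT kidneys at day 5 against 2.11 and 2.22 CPM in WT kidneys at day 0. The high WT library at day 5 was again replicate 3 in mt-Atp6, and was not the highest in mt-Atp8.

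The RNAs of the small and large mitochondrial ribosomal subunits, mt-Rnr1 and mt-Rnr2, were lower at day 5 as well. mt-Rnr1 had 387, 330.0 and 411 CPM in KO kidneys at day 5 against 495, 561, 479.5 and 523 CPM in KO kidneys at day 0, and 345, 358 and 269 CPM in WT kidneys at day 5 against 589.9 and 696 CPM in WT kidneys at day 0. mt-Rnr2 had 474, 412 and 514 CPM in KO kidneys at day 5 against 596, 633, 720.3 and 764 CPM in KO kidneys at day 0, and 447, 454 and 475 CPM in WT kidneys at day 5 against 968 and 1317 CPM in WT kidneys at day 0. The 2 WT day 0 libraries were the highest of all 12 for both RNAs. At day 0 every KO library also lay below both WT libraries for mt-Atp8, mt-Nd6 and mt-Nd4l. Of all genes tested 16.7% showed that order at day 0, so it is not particular to the ribosomal RNAs. mt-Rnr1 changed by -0.91 ± 0.12 in KO (limma adjusted p = 3.18e-05) and -1.42 ± 0.14 in WT (adjusted p = 4.66e-06), and mt-Rnr2 by -0.99 ± 0.11 in KO (adjusted p = 1.20e-05) and -1.72 ± 0.14 in WT (adjusted p = 8.36e-07).

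The transfer RNA row mt-Tp had 133, 106 and 105 CPM in KO kidneys at day 5 against 201, 219, 190.0 and 171 CPM in KO kidneys at day 0, and 113, 72.7 and 115 CPM in WT kidneys at day 5 against 173 and 216 CPM in WT kidneys at day 0. Its log2 fold change was -1.22 ± 0.16 in KO (limma adjusted p = 4.34e-05) and -1.40 ± 0.20 in WT (adjusted p = 7.89e-05). The sequence shown above shared no 50-base stretch with an annotated nuclear transcript.

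To see which rows moved against the others, the fit was repeated with each library scaled to its own mitochondrial total. In KO kidneys 2 of the 16 rows were called, both higher at day 5 and both ribosomal RNAs: mt-Rnr1 at 0.59 ± 0.11 (limma adjusted p = 0.000137) and mt-Rnr2 at 0.51 ± 0.13 (adjusted p = 0.00233). In WT kidneys 0 of 16 were called by limma, with mt-Rnr1 at 0.20 ± 0.13 and mt-Rnr2 at -0.10 ± 0.16; none had an unadjusted p under 0.05, and edgeR on the recovered reads called 1, mt-Nd2. Without WT day 5 replicate 3 the WT count was 3, with mt-Rnr1 at 0.32 (limma adjusted p = 0.025), mt-Nd4l at -0.67 (adjusted p = 0.0149) and mt-Co3 at -0.36 (adjusted p = 0.0262, against 0.06 with that library). Without WT day 5 replicate 2 or KO day 5 replicate 2 it was 1. On this scale 89.7% of all genes were called in KO (87.8% higher and 1.86% lower) and 88.1% in WT (86.9% higher and 1.19% lower), so a share of members called is not comparable with that of other genes. mt-Rnr1 took 0.892% ± 0.082 of mitochondrial reads in KO kidneys at day 5 against 0.591% ± 0.027 in KO kidneys at day 0 (SD, n = 3 and 4). In WT kidneys it took 0.822% ± 0.114 at day 5 against 0.712% ± 0.075 at day 0 (SD, n = 3 and 2). The difference between genotypes on this scale was not tested.

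**Figure D3:**
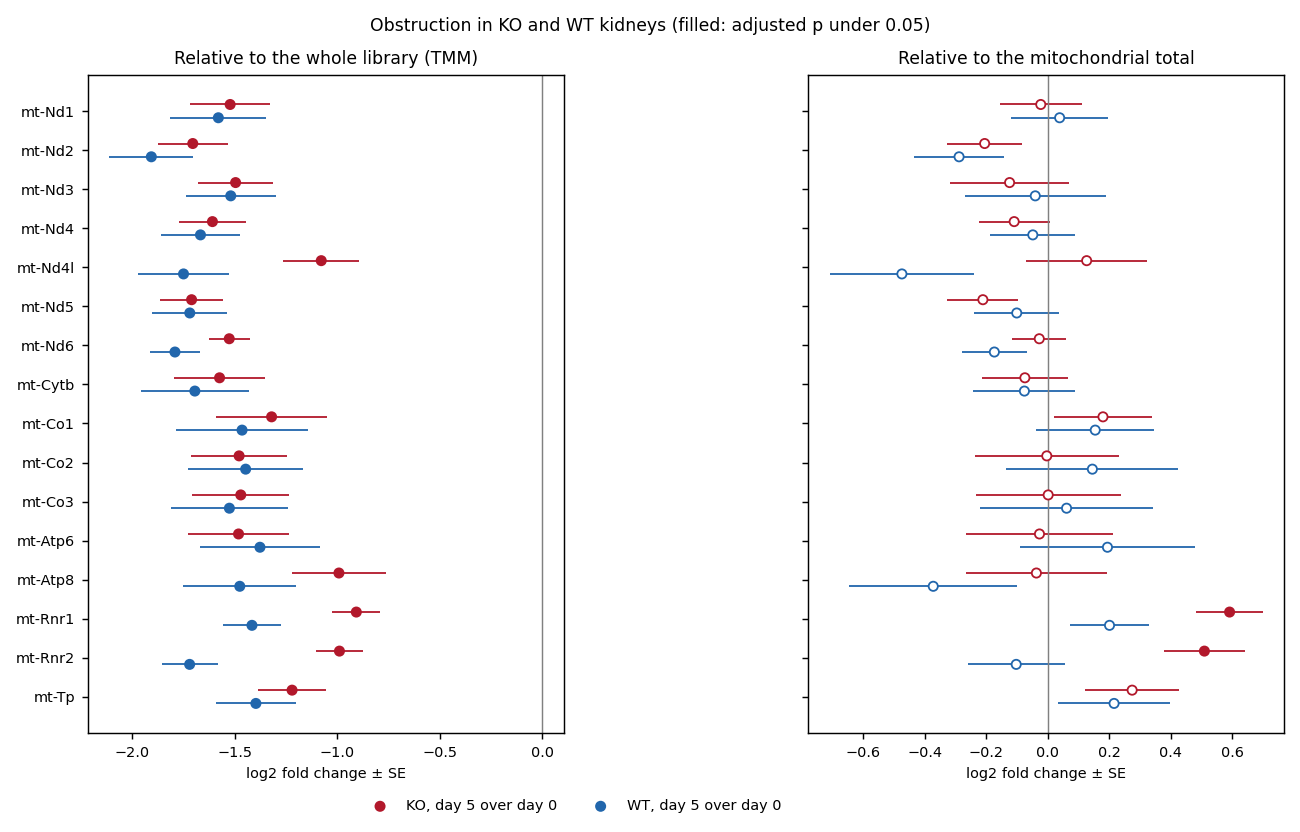
Log2 fold change at day 5 over day 0 ± SE from limma for the 16 rows with reads, KO above WT within each row, relative to the whole library (left) and to the mitochondrial total (right); filled points have an adjusted p under 0.05. All points on the left lie between -1.91 and -0.91, and on the right mt-Rnr1 (0.59) and mt-Rnr2 (0.51) in KO are the filled points.

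The library WT day 5 replicate 3 stood apart in the rows that share sequence with chromosome 1. The 5 rows sharing over 90% summed to 104 CPM in it against 42.7 and 48.1 CPM in its mates, a ratio to their mean of 2.29. The 7 chromosome 1 copies summed to 127 CPM against 61.7 and 63.5 CPM, a ratio of 2.04. The 3 chromosome 2 copies did not share this, at 43.9 CPM against 40.6 and 49.9 CPM, nor did the 9 rows with over 400 unshared positions, at 38711 CPM against 38801 and 40120 CPM. In the other 11 libraries the ratio for the 5 rows lay between 0.561 and 1.11, its lowest values being those of the 2 mates, whose own comparison includes replicate 3. The library is also the Y-linked one of its group. So are KO day 5 replicate 2, with a ratio of 0.888 for the 5 rows, and WT day 0 replicate 1, with 0.961. Whether the pattern bears on these rows was not tested.

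**Figure D4:**
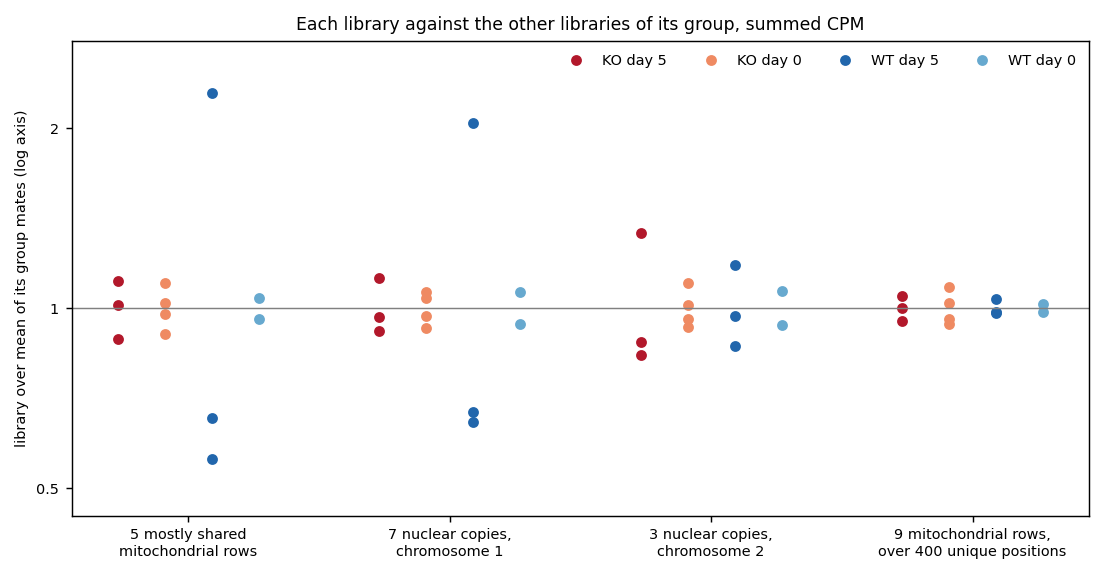
Summed CPM of each library divided by the mean of the other libraries of its group (log axis), for 5 mitochondrial rows sharing over 90% of 50-base stretches, 7 nuclear copies on chromosome 1, 3 on chromosome 2 and 9 mitochondrial rows with over 400 unshared positions. WT day 5 replicate 3 lies at 2.29 and 2.04 in the first 2 classes and at 0.969 and 0.981 in the others.

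Without that library the WT fold change of mt-Co2 was -1.85 (limma adjusted p = 1.20e-06) in place of -1.45 (adjusted p = 0.00095). That of mt-Co3 was -1.93 in place of -1.53, of mt-Atp6 -1.77 in place of -1.38, of mt-Nd3 -1.72 in place of -1.52 and of mt-Nd4l -1.90 in place of -1.75. All 16 rows stayed lower at day 5 without it. The nuclear copies were lower at day 5 as well, 12 of 12 tested in each genotype. Among all genes tested, 25.4% were lower in KO and 22.6% in WT. Gm28661 changed by -1.57 ± 0.19 in KO (limma adjusted p = 1.66e-05) and -1.55 ± 0.22 in WT (adjusted p = 0.000106), and Gm13341 by -1.59 ± 0.12 in KO (adjusted p = 3.95e-07) and -1.70 ± 0.15 in WT (adjusted p = 1.57e-06). Reads of the copies and of the mitochondrial genes cannot be told apart where the sequence is identical.

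Nuclear genes of the OXPHOS system were lower at day 5 too, by a smaller amount. Of 71 nuclear genes for subunits of complexes I, III, IV and V, 71 were lower at day 5 in KO and 71 in WT. Among all genes tested, 25.4% were lower in KO and 22.6% in WT. The median log2 fold change of the 71 was -1.15 in each genotype. With library size as the only scaling 69 were called lower in each genotype. Ndufs1, an iron-sulphur subunit of complex I, changed by -1.43 ± 0.09 in KO (limma adjusted p = 7.66e-08) and -1.63 ± 0.10 in WT (adjusted p = 2.06e-07). The 4 subunits of complex II, the only complex with none from the mitochondrial genome, were all lower as well, at a median of -1.24 in KO and -1.34 in WT. These nuclear genes summed to 17805, 17540.5 and 19268 CPM in KO kidneys at day 5 against 30951, 31252, 30419 and 28967 CPM in KO kidneys at day 0. In WT kidneys they summed to 16079, 17369 and 15989 CPM at day 5 against 28576 and 28553 CPM at day 0.

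The ratio of the 13 mitochondrial protein-coding rows to these 71 nuclear genes, which does not depend on library scaling, was therefore lower at day 5. On the log2 scale it was 1.25, 1.18 and 1.09 in KO kidneys at day 5 against 1.49, 1.54, 1.43 and 1.52 in KO kidneys at day 0, and 1.24, 1.18 and 1.25 in WT kidneys at day 5 against 1.62 and 1.64 in WT kidneys at day 0. The groups did not overlap in either genotype. The mean difference within genotypes was -0.36 (exact permutation test stratified by genotype, two-sided p = 0.00571), made of -0.32 in KO (exact p = 0.0571) and -0.40 in WT (exact p = 0.2), each again the smallest possible p. With complex IV alone the KO difference was -0.15 (exact p = 0.114), and with the median over genes in place of their sum the WT difference was -0.66 (exact p = 0.2).

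**Figure D5:**
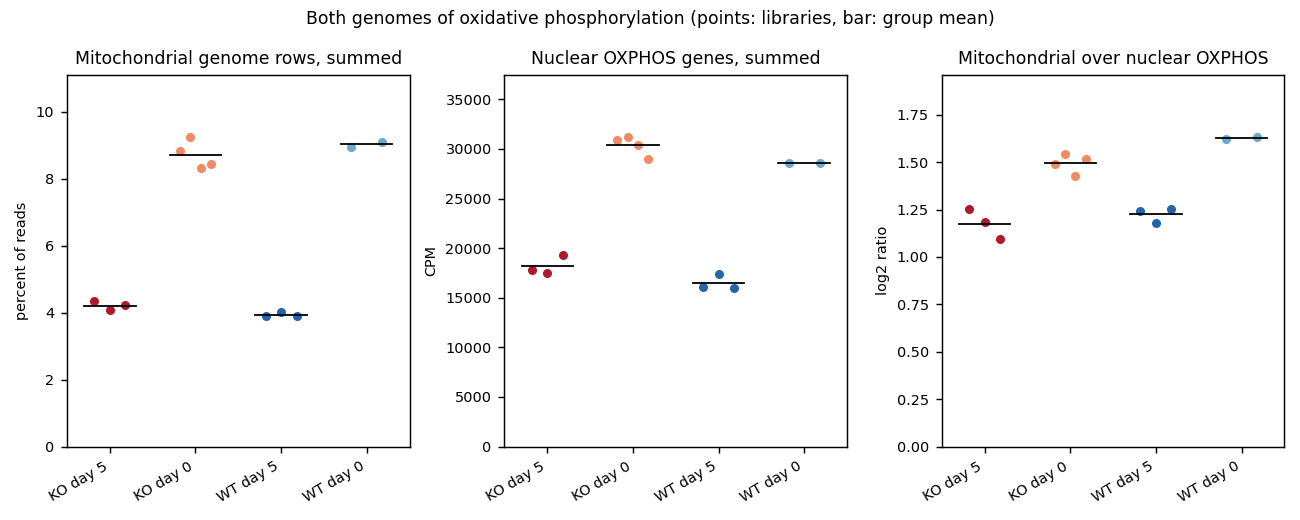
Share of reads in the 37 mitochondrial rows (percent), summed CPM of 71 nuclear OXPHOS genes and log2 ratio of the 13 mitochondrial protein-coding rows to those nuclear genes, in every library; axes start at 0 and bars are group means. Day 5 lies below day 0 in each panel, with means of 4.21% in KO day 5, 8.71% in KO day 0, 3.94% in WT day 5 and 9.02% in WT day 0 for the share.

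Markers of several cell types changed with obstruction as well. Their counts are to be read against all genes tested, of which 25.4% were lower and 29.4% higher in KO. In WT 22.6% were lower and 24.5% higher. The 12 proximal tubule markers were lower at day 5 in 11 cases in KO and 12 in WT, with medians of -1.97 and -2.56, and summed to 10547 to 13350 CPM in KO kidneys at day 5 against 43784 to 53202 CPM at day 0, and to 5263 to 11224 CPM in WT kidneys at day 5 against 24332 to 41864 CPM at day 0. In KO every day 0 library was Y-linked, but at day 5 only replicate 2 was. Day and sex-chromosome pattern are therefore partly confounded in these sums, which can also rest on their most abundant members. The part of either was not tested. All 9 macrophage and all 8 myofibroblast markers were higher at day 5 in both genotypes. Macrophage markers summed to 858 to 1121 CPM in KO kidneys at day 5 against 139 to 193 CPM at day 0, and to 836 to 1159 CPM in WT kidneys at day 5 against 145 to 159.5 CPM at day 0. Tubule injury markers were higher in 6 of 6 cases in each genotype, and lymphocyte markers in 4 of 7 tested. Erythroid markers were higher in 4 of 5 cases in WT and 0 of 5 in KO. They summed to 280 to 4646 CPM in WT kidneys at day 5 and to 206 to 314 CPM in KO kidneys at day 5. Adipocyte markers had medians of -0.68 in KO (1 of 5 lower) and 0.88 in WT (1 of 5 higher), counts not above the shares over all genes. Thick ascending limb markers were lower in 5 of 6 cases in KO and 4 of 6 in WT, and those of distal tubule and collecting duct in 6 of 10 and 7 of 10. Endothelial markers were mostly not called, with 1 of 6 lower in each genotype, and podocyte markers had 1 of 6 higher and 1 of 6 lower in each. These counts do not stand above the shares over all genes and are no result about either list. The part of these cell types in the fall of the mitochondrial transcripts was not tested.

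Genes that act on the mitochondrial genome and its RNA were called lower more often than higher in most lists, to be read against 25.4% lower and 29.4% higher of all genes tested in KO, and 22.6% lower and 24.5% higher in WT. Of 9 genes of mitochondrial transcription, 6 were lower and 0 higher at day 5 in each genotype, with a median of -0.49 in KO and -0.58 in WT. Polrmt, the RNA polymerase of the organelle, changed by -0.49 ± 0.08 in KO (limma adjusted p = 0.000126) and -0.67 ± 0.09 in WT (adjusted p = 6.04e-05). Tfam, which packages mitochondrial DNA and starts transcription, changed by -0.73 ± 0.07 in KO (adjusted p = 3.99e-06) and -0.61 ± 0.09 in WT (adjusted p = 0.000105). Tfb2m, the factor that opens the promoter, changed by -0.69 ± 0.08 in KO and -0.77 ± 0.10 in WT (adjusted p = 1.99e-05 and 4.80e-05).

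Of 11 genes of RNA processing, 8 were lower and 0 higher in each genotype, with medians of -0.47 in KO and -0.57 in WT. Hsd17b10, a subunit of the enzyme that cuts the 5′ end of mitochondrial transfer RNAs, changed by -0.78 ± 0.07 in KO (limma adjusted p = 1.78e-06) and -0.85 ± 0.09 in WT (adjusted p = 5.87e-06). Of 6 tested genes of RNA stability and decay, 3 were lower in each genotype, with medians of -0.32 in KO and -0.41 in WT. Lrpprc, which keeps mitochondrial messenger RNAs stable and polyadenylated, changed by -0.93 ± 0.08 in KO (adjusted p = 5.96e-07) and -1.08 ± 0.09 in WT (adjusted p = 1.26e-06). Grsf1, of the RNA granules of the organelle, changed by -0.92 ± 0.08 in KO and -1.09 ± 0.09 in WT (adjusted p = 6.41e-07 and 1.17e-06), and Supv3l1, a helicase of RNA decay, by -0.51 ± 0.10 in KO and -0.54 ± 0.12 in WT (adjusted p = 0.000846 and 0.0024).

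Replication and maintenance of mitochondrial DNA was mixed: of 11 genes, 5 were lower and 1 higher in each genotype, with medians of -0.06 in KO and -0.34 in WT. Top1mt, the mitochondrial topoisomerase, changed by -0.86 ± 0.13 in KO and -0.98 ± 0.16 in WT (limma adjusted p = 0.000134 and 0.000241). Twnk, the replicative helicase, changed by -0.44 ± 0.11 in KO and -0.59 ± 0.13 in WT (adjusted p = 0.0039 and 0.0024). Of 12 genes of transfer RNA modification, 4 were lower and 2 higher in KO, and 2 lower and 2 higher in WT, which is near the shares over all genes and no result about the list. Mto1 and Gtpbp3, the partners that modify the wobble base of several mitochondrial transfer RNAs, went opposite ways: Mto1 changed by -0.99 ± 0.12 in KO and -1.13 ± 0.14 in WT (adjusted p = 1.67e-05 and 3.24e-05), and Gtpbp3 by 0.53 ± 0.09 in KO and 0.53 ± 0.10 in WT (adjusted p = 0.000228 and 0.00107).

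Regulators of mitochondrial biogenesis were mostly lower, 7 lower and 3 higher of 10 in KO and 7 lower and 2 higher in WT. Esrra, a nuclear receptor that drives OXPHOS genes, changed by -0.98 ± 0.10 in KO (limma adjusted p = 3.15e-06) and -1.13 ± 0.12 in WT (adjusted p = 5.87e-06). Ppargc1a, its coactivator, named after its values were seen, changed by -0.65 ± 0.24 in KO (adjusted p = 0.035) and -1.40 ± 0.28 in WT (adjusted p = 0.00132). Pprc1, a related coactivator, was higher, at 1.14 ± 0.13 in KO (adjusted p = 8.70e-06) and 0.83 ± 0.15 in WT (adjusted p = 0.000651).

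Genes used as measures of mitochondrial mass, such as outer-membrane channels and import receptors, were lower in 15 of 16 cases in KO and 14 of 16 in WT, with medians of -0.73 and -0.81. Vdac1, the main channel of the outer membrane, changed by -1.04 ± 0.07 in KO and -1.08 ± 0.09 in WT (limma adjusted p = 2.19e-07 and 1.13e-06), and Slc25a5, an ADP/ATP carrier of the inner membrane, by -1.27 ± 0.10 in KO and -1.62 ± 0.12 in WT (adjusted p = 3.51e-07 and 4.19e-07). Of 11 mitophagy genes, 7 were lower and 1 higher in KO, and 5 lower and 1 higher in WT. Pink1, the kinase that marks damaged mitochondria, changed by -1.20 ± 0.10 in KO and -1.15 ± 0.12 in WT (adjusted p = 6.19e-07 and 5.88e-06).

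These lists depend on scaling more than the mitochondrial rows do. With library size as the only scaling, medians turned positive in both genotypes for replication (0.36 in KO, 0.08 in WT), RNA stability (0.12 and 0.01) and transfer RNA modification (0.33 and 0.22), and in KO for mitophagy (0.14). Of the 24 genes that the naming rule picked from the 8 lists, all kept their direction, but 9 in KO and 6 in WT were no longer called. RLE and upper-quartile factors, and factors made without the mitochondrial rows, changed no call among the 24.

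Between KO and WT kidneys, limma called no mitochondrial row at either time. DESeq2 called 1 at day 0, where it called 146 genes lower and 229 higher in all. At day 0, 0 of 16 rows were called by limma between KO and WT kidneys, where 0.0166% of all genes were called. At day 5, 0 of 16 were called, where 0% of all genes were. Sprr2f itself was not called at day 5, at -4.14 ± 0.59 (SE, limma adjusted p = 0.152). A row that is not called is therefore not shown to be equal in KO and WT kidneys. Log2 differences, KO minus WT, ran from -0.67 (mt-Rnr2) to 0.16 (mt-Nd4) at day 0 and from -0.12 (mt-Atp6) to 0.28 (mt-Nd4l) at day 5. With edgeR on the recovered reads 0 rows were called at either time. At an unadjusted p under 0.05 there was 1 row at day 0 and 0 at day 5, counts without the share of all genes beside them.

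That row was mt-Rnr2, with a log2 difference of -0.67 ± 0.13 (SE, limma adjusted p = 0.081). The values were 596, 633, 720.3 and 764 CPM in KO kidneys at day 0 against 968 and 1317 CPM in WT kidneys at day 0. Every KO library lay below both WT libraries, a pattern that 16.7% of all genes tested showed at day 0 and 6.67% at day 5. DESeq2 on the recovered reads called it (-0.66, adjusted p = 0.000241). The difference was -0.86 without WT day 0 replicate 1 and -0.46 without replicate 2. The lone WT library is in both cases assumed to vary like the other groups. Replicate 2 of WT carries Xist, while replicate 1 and every KO library at day 0 are Y-linked. Genotype and this pattern are therefore partly confounded at day 0. With the pattern as a covariate the difference of mt-Rnr2 was -0.59 (limma adjusted p = 0.0917).

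The change with obstruction was compared between genotypes by an interaction term, and 0 of 16 rows were called by limma, where 0.00553% of all genes were. mt-Rnr2 had the interaction farthest from 0, 0.73 ± 0.18 (limma adjusted p = 0.402), followed by mt-Nd4l at 0.67 ± 0.29 (adjusted p = 0.648) and mt-Rnr1 at 0.51 ± 0.18 (adjusted p = 0.595). For mt-Rnr2 it was called by DESeq2 (0.73, adjusted p = 0.0311), which called 9 genes lower and 28 higher in all, and edgeR called 0 rows. The interaction of mt-Rnr2 was 0.91 without WT day 0 replicate 1 and 0.51 without replicate 2. With the sex-chromosome pattern as a covariate it was 0.65 (limma adjusted p = 0.368). At an unadjusted p under 0.05 there were 3 rows, a count without the share of all genes beside it and therefore not read as a result. By limma the change of the ribosomal RNAs with obstruction is thus not shown to differ between KO and WT kidneys. Nor is it shown to be equal, since the interaction of Sprr2f itself, -4.26 ± 0.86, was not called (limma adjusted p = 0.334).

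The mitochondrial share of reads overlapped between genotypes at day 0, with means of 8.71% ± 0.43 in KO and 9.02% ± 0.10 in WT (SD, n = 4 and 2, exact permutation p = 0.533). At day 5 the means were 4.21% ± 0.14 in KO and 3.94% ± 0.07 in WT (SD, n = 3 each), and every KO library was above every WT library (exact permutation p = 0.1, the smallest these group sizes allow). At the same time the 12 proximal tubule markers had log2 differences, KO minus WT, of 0.30 to 0.90 with a median of 0.60, and limma called 0 of them. The share of all genes with a positive difference is not beside these values, so they are not read as a result. The part of these markers in the mitochondrial share was not tested. The log2 ratio of mitochondrial to nuclear OXPHOS transcripts was lower in all 4 KO libraries at day 0 than in both WT libraries, at 1.49 ± 0.05 against 1.63 ± 0.01 (SD, n = 4 and 2, exact permutation p = 0.133, the smallest possible). At day 5 it was 1.18 ± 0.08 in KO and 1.22 ± 0.04 in WT (SD, n = 3 each, exact permutation p = 0.7).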

How the data were processed

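RNA of left kidneys was sequenced in 12 libraries with 50-base reads; the labels do not tie each to its own animal. Per the submitters' processing notes, STAR, SAMtools and HTSeq were used with GRCm38.p6; versions, strand setting and the handling of reads with several matches are not given in the sources used here. The authors deposited CPM: every column sums to the same total, although the table is called counts. Whole reads were recovered from the deposited CPM (100% of 665652 values within 0.001 of a whole number), giving 16567256 to 19398882 reads per library.

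CPM was divided by TMM factors (edgeR 4.0.16) and log2(CPM + 0.5) was fitted with limma 3.58.1 (R 4.3.3, trended empirical Bayes) over all 4 groups and 18093 genes kept by filterByExpr (minimum count 10, minimum total 15), with Benjamini-Hochberg adjustment and a threshold of 0.05. A further fit scaled each library to its mitochondrial total. Fold changes are on the log2(CPM + 0.5) scale and understate changes of low genes. The share of reads and the mitochondrial to nuclear ratio were tested by exact two-sided permutation, without a term for the sex-chromosome pattern. The fits were tested on simulated data. Shared 50-base stretches were counted on both strands of the GENCODE M21 transcripts (Python 3.11.15), and copies were aligned with Biopython 1.88.

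Alternatives were edgeR and DESeq2 1.42.0 and voom on the recovered reads, other added values, filters and scalings, a sex-chromosome covariate, and each library left out. On the recovered reads edgeR called 4482 genes lower and 5350 higher at day 5 in KO, 4130 lower and 4330 higher in WT, and 3 genes between KO and WT at day 0. Members and gene lists were chosen with earlier results of these data known. All members are given; from each gene list the 3 genes ranked first by p over both genotypes could be named.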

Additional observations from a re-analysis of the deposited data

How the results depend on the processing

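The fall with obstruction was called for all 16 rows, in KO and in WT, under every alternative run (800 values). The differences in share and in ratio stratified by genotype kept direction and side of the threshold, with ranges without 1 library of -4.86 to -4.70 percentage points and -0.38 to -0.34 (log2). The count of rows called between genotypes at day 0 was 1 with DESeq2, and the count for the interaction was likewise 1. The row was mt-Rnr2 each time, and DESeq2 also called more genes in all, as given above. Leaving out a WT day 0 library leaves 1 in that group, so only effect sizes are given for mt-Rnr2. Against the mitochondrial total, the KO count of 2 was 5 with edgeR, which added mt-Nd2, mt-Co1 and mt-Nd5, and 2 to 3 without 1 library. The WT count of 0 was 1 with edgeR, 1 with the sex-chromosome covariate and 0 to 3 without 1 library. Without WT day 5 replicate 3, mt-Co3 turned to -0.36 (limma adjusted p = 0.0262), the lowest of a range without 1 library that reached 0.30. The cause was not tested. No paired analysis was possible because the labels give the groups no shared replicate numbers. WT at day 0 has 2 libraries, and rows near 1 CPM rest on few reads.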
